A study of Homo sapiens with 40 samples.

Results

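The mRNAs of 9 plexin and Notch receptors were followed through APEX labelling of RNA at 4 places in HEK293T cells. The 9 are PLXNA1, PLXNA2, PLXNA3, PLXNB1, PLXNB2, PLXND1, NOTCH1, NOTCH2 and NOTCH3, out of 57992 genes in the count table. They were picked by name with their enrichment over input already known from these data. Their enriched-against-input values are therefore descriptions, and p-values of the receptors are printed only for input against input. Where receptors past a threshold are counted on enrichment values, the count stands beside the share of all genes past it and is no test of the receptors. P-values on enrichment are printed for other genes only.

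Plexins are large single-pass membrane proteins that act as receptors for semaphorins, and Notch receptors are single-pass membrane proteins that are cut after they bind a ligand, so that the intracellular part can enter the nucleus and act on transcription. Both families carry a signal peptide and are made by ribosomes bound to the endoplasmic reticulum (ER). Most of the enzymes that glycosylate and cut them sit in the same secretory pathway. Plexins act through small GTPases in the cytosol, and Notch acts through RBPJ and Mastermind-like proteins in the nucleus.

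In the RefSeq annotation of GRCh38.p14 the 9 genes lie on 6 chromosomes, and the counts cover whole genes. Chromosome 3 holds 3 of the plexins, PLXNA1 from 126983115 to 127037389, PLXNB1 from 48403854 to 48430310 and PLXND1 from 129555214 to 129606676. Chromosome 1 holds PLXNA2 from 208022242 to 208244384 and NOTCH2 from 119911553 to 120069662. The others are PLXNA3 from 154458281 to 154477779 on chromosome X, PLXNB2 from 50274979 to 50307646 on chromosome 22, NOTCH1 from 136494433 to 136546048 on chromosome 9 and NOTCH3 from 15159038 to 15200995 on chromosome 19.

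HEK293T is a human embryonic kidney cell line that carries the SV40 large T antigen. APEX2, a peroxidase that tags nearby molecules with biotin-phenol, was directed to the mitochondrial matrix (MITO), the ER membrane (ERM), the cytosol (NES) or the nuclear lamina (LMNB1). Cells of the s6G arms received 100 µM 6-thioguanosine (s6G), a nucleoside that growing transcripts take up, for 5 h in all, then 0.5 mM biotin-phenol for 30 min and 1 mM H2O2 for 1 min. The s4U arm, run with MITO only, received 100 µM 4-thiouridine in place of s6G. The arm called APEX only (MITO and LMNB1) had biotin-phenol and H2O2 but no nucleoside. The unlabelled arm (MITO and LMNB1) had the same H2O2 but neither nucleoside nor biotin-phenol. ERM and NES were run with s6G only, so no unlabelled libraries stand beside them. Each replicate gave an input library and a library enriched on streptavidin, both from poly(A) RNA, with 4 replicates for ERM and 2 for every other arm. The series calls them biological replicates and does not say whether they came from separate cultures on separate days, so the spread reported here is that between these samples. How the 4 constructs were introduced, and whether the lines were clonal, was not given in the sources used here.

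The 40 libraries held between 123341 and 14496768 counts, and the shallowest were the unlabelled enriched libraries of MITO, with 123341 and 842177. Every non-zero count was even in the enriched ERM libraries 3 and 4, and 60% and 61% were even in inputs 3 and 4, against 42.6% to 49% in the other 36 libraries. For the 4 enriched ERM libraries and the 4 LMNB1 s6G libraries the treatment entry was s4U, whereas titles and design text gave s6G, and the titles were followed. NEFL, NEFM and VIM, genes known from HEK293 cells, had counts in all 40 libraries, and the kidney gene PAX2 lay between 0.187 and 16.8 CPM (counts per total count of the library, times 1e+06). CDH5, PECAM1, TEK and VWF (endothelial) and CD3E, LYZ and PTPRC (leukocyte) had a median of 0, and the medians of TIE1, CLDN5 and CD14 were between 0.215 and 1.73 CPM. SEC61B, a subunit of the ER translocon, had 1091 to 1262 CPM in the ERM inputs against 82.7 to 138 CPM in the inputs of the other constructs, and LMNB1 had 2340 to 5053 CPM in the LMNB1 inputs against 98.8 to 340 CPM elsewhere. Whether these reads came from the constructs was not tested.

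In the inputs the receptors spanned a wide range of levels. Per transcript length, in the authors' deposited table of TPM (the mean of the 2 replicates of each MITO arm), PLXNB2 was the most abundant, between 28.15 and 38.78 TPM over the 4 input groups. PLXNA1 followed at 20.64 to 26.97, PLXNA3 at 19.47 to 27.68 and NOTCH3 at 17.13 to 25.17 TPM, ranges that overlap. PLXND1 lay at 8.397 to 10.46, NOTCH2 at 6.514 to 10.3 and NOTCH1 at 3.747 to 7.201 TPM. PLXNB1 was at 4.11 to 4.742 TPM and PLXNA2 was lowest, at 0.2896 to 0.9887 TPM. PLXNA4, PLXNB3 and PLXNC1 were all under 1 TPM in the 4 input groups, and NOTCH4, known from endothelial cells, was listed at 0. Reads of NOTCH2 could be split with its partial copies of the NOTCH2NL group, whose sequence is nearly identical over part of the gene, so its level is uncertain.

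With ERM, most plexin mRNAs lay below their input after enrichment. Levels with ERM and NES are given as CPM on library totals scaled by TMM, a method that sets the bulk of genes equal between libraries, and they can be compared between libraries of these 2 constructs but not between genes. PLXNB2, a receptor for class 4 semaphorins, had 154, 125, 123 and 136 CPM in the 4 inputs and 66, 51.4, 54.8 and 59.5 CPM in the enriched libraries. PLXNA1, which works with neuropilins as a receptor for class 3 semaphorins, had 132, 127, 106 and 95.1 CPM in input and 76.3, 68, 67.4 and 66.7 CPM after enrichment. For both, all enriched libraries were below all inputs, at −1.22 ± 0.11 (SE, log2, n = 4) for PLXNB2 and −0.72 ± 0.12 for PLXNA1.

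PLXNA3, another neuropilin partner, had 46.2, 48.9, 40.4 and 34.9 CPM in the ERM inputs and 15.8, 10, 13.8 and 16.1 CPM after enrichment. PLXND1, a receptor for SEMA3E that guides vessels, had 45.9, 44.9, 34.1 and 29.1 CPM in input and 12.6, 10.3, 9.57 and 12 CPM after enrichment. PLXNB1, a receptor for SEMA4D that signals to RhoA, had 16.7, 11.5, 11.4 and 13.3 CPM in input and 3.06, 4.22, 7.84 and 6 CPM after enrichment. None of the 3 had groups that overlapped. PLXND1 lay furthest below input of the 9 genes, at −1.79 ± 0.17 (log2), with PLXNA3 at −1.60 ± 0.15 and PLXNB1 at −1.26 ± 0.24. The value of PLXNB1 differed between replicates 1 and 2 (−1.92 from these alone) and replicates 3 and 4 (−0.83). PLXNA2 went the other way. Its inputs held 9.08, 6.23, 6.23 and 4.56 CPM and its enriched libraries 10.8, 10.7, 6.91 and 9.45 CPM, so that each enriched library was above its own input while the groups overlapped, at 0.54 ± 0.23 (log2). This rests on 34 to 148 counts per library.

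The 3 Notch genes differed from each other with ERM. NOTCH1, the family's best known member, had 32.8, 35.9, 18.9 and 13.7 CPM in input and 52.3, 45.6, 24.5 and 24.1 CPM after enrichment. NOTCH2 had 147, 140, 109 and 92.4 CPM in input and 144, 118, 91.4 and 70.7 CPM after enrichment. NOTCH3 had 72.8, 64.5, 44.4 and 32.4 CPM in input and 26.4, 23.1, 23.4 and 17.4 CPM after enrichment. NOTCH1 was above its own input in all 4 replicates (0.54 ± 0.31, log2), NOTCH2 was slightly below in all 4 (−0.21 ± 0.19), and NOTCH3 was far below with no overlap (−1.25 ± 0.23). The inputs of all 3 were higher in replicates 1 and 2 than in replicates 3 and 4, the libraries that differ in depth and in the share of even counts. Whether that processing bears on the levels was not tested. The enrichment of NOTCH1 was 0.54 from replicates 1 and 2 and 0.58 from replicates 3 and 4.

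**Figure D1:**
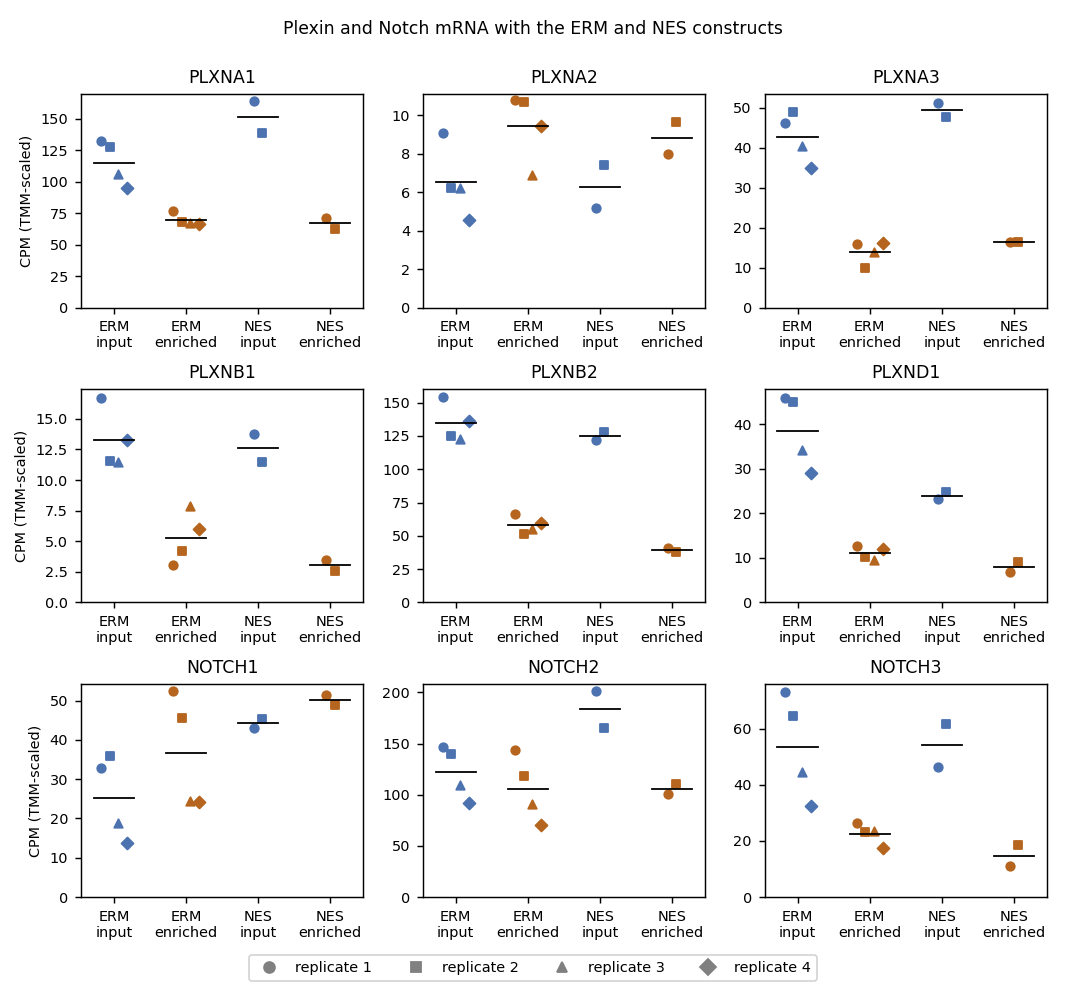
CPM on TMM-scaled totals (y axis, linear, from 0) of the 9 receptors in each ERM and NES library, input in blue and enriched in brown, with a marker for each replicate and a bar for the group mean. PLXNA3, PLXNB2, PLXND1 and NOTCH3 lie below input with both constructs, while PLXNA2 and NOTCH1 do not.

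With NES the same 2 genes stood apart. NOTCH1 had 43 and 45.4 CPM in the 2 inputs and 51.3 and 48.8 CPM after enrichment, and PLXNA2 had 5.16 and 7.44 CPM in input and 8.02 and 9.68 CPM after enrichment. Their enriched libraries lay above both inputs, but by less than or little more than the error (0.18 ± 0.43 and 0.49 ± 0.34, log2, n = 2). The other 7 lay below both inputs, as did 39.5% of all genes tested, and 40.1% lay above both. PLXNB1 went from 13.8 and 11.4 CPM to 3.45 and 2.57 CPM (−2.06 ± 0.38), the lowest value of any of the 9 in any arm. NOTCH3 went from 46.3 and 61.7 CPM to 11 and 18.5 CPM (−1.87 ± 0.34). PLXNB2 was at −1.66 ± 0.16, PLXND1 at −1.60 ± 0.25, PLXNA3 at −1.59 ± 0.22, PLXNA1 at −1.18 ± 0.17 and NOTCH2 at −0.79 ± 0.27 (log2). NOTCH2 thus lay nearer to its input with ERM than with NES.

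Many genes moved in both arms, which sets the scale for these values. At an adjusted p of 0.05, 63.2% of the 15619 genes tested were called in the enriched ERM libraries (34.3% higher and 28.9% lower) and 55.1% with NES (28.7% higher and 26.4% lower). Of the 9 receptors, which all passed the filter on low counts in every fit, 1 was past that threshold above input (PLXNA2) and 6 below with ERM, and 0 above and 7 below with NES. No receptor was past it above input with ERM in 11 of 18 alternative settings, among them RLE scaling and DESeq2. When each enriched library was paired with its own input, NOTCH1 and NOTCH2 also passed with ERM, giving 2 above and 7 below, in a fit that called 66.7% of all genes (36.3% higher and 30.4% lower). Enriched libraries were all below the inputs for 26% of genes with ERM and all above for 30.7%, against 6 and 0 of the 9 receptors. The median over the 9 was −1.22 with ERM and −1.59 with NES (log2), against 0.11 and 0.01 over all genes tested.

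The receptors' own cell surface neighbours did not all behave in this way. Among the Frizzled receptors, the seven-pass receptors for Wnt proteins, and their co-receptors of the LRP family, 10 of 11 genes tested rose with ERM and 10 of 11 with NES, with medians of 2.15 and 1.73 (log2). FZD4 rose by 2.37 ± 0.21 with ERM and 1.73 ± 0.32 with NES, and FZD9 by 2.38 ± 0.21 and 1.56 ± 0.31. The exception was LRP5, which fell by 0.43 ± 0.12 with ERM and by 1.27 ± 0.17 with NES. The difference between the 2 families was not tested.

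**Figure D2:**
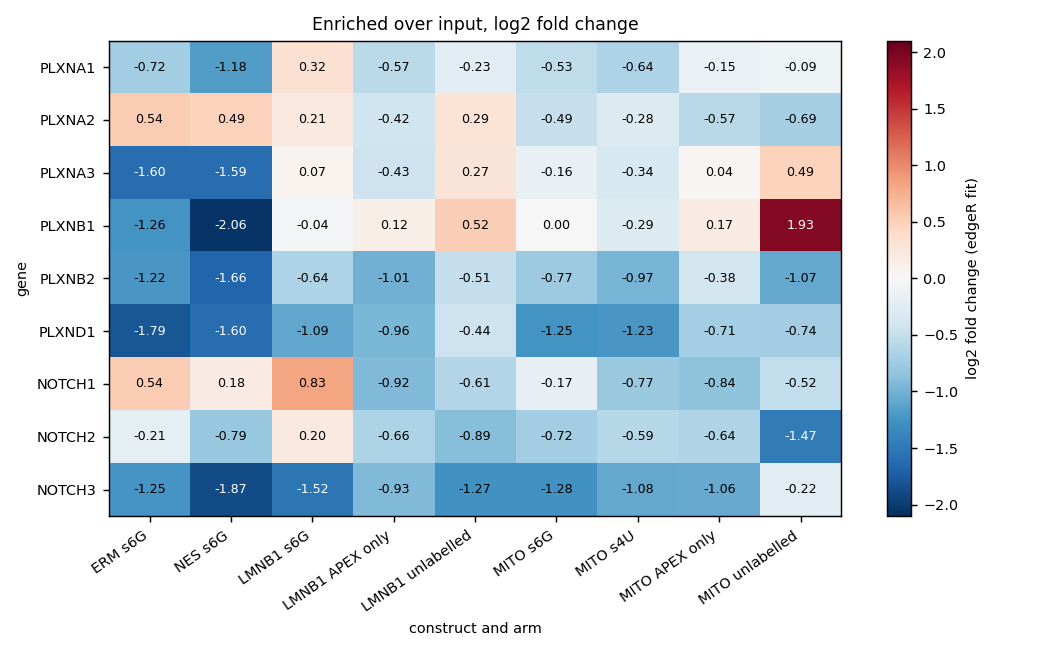
Log2 fold change of enriched over input (colour and printed value) for the 9 receptors (y axis) in the 9 construct and arm combinations (x axis). NOTCH3, PLXND1 and PLXNB2 are below input in all 9, whereas NOTCH1 is above input in the s6G arms of ERM, NES and LMNB1.

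ERM against NES asks which RNAs were recovered more at the ER membrane than in the cytosol, each relative to its own input. On this scale 7 of the 9 receptors lay on the ERM side, although most were below input in both arms. PLXNB1 differed by 0.80 ± 0.45, NOTCH3 by 0.63 ± 0.40, NOTCH2 by 0.58 ± 0.33, PLXNA1 by 0.46 ± 0.21 and PLXNB2 by 0.44 ± 0.19 (log2, SE). NOTCH1 differed by 0.36 ± 0.54 and PLXNA2 by 0.05 ± 0.41, both less than 1 SE. PLXNA3 (0.00 ± 0.25) and PLXND1 (−0.19 ± 0.30) showed no shift to the ERM side. The median of the 9 was 0.44 and that of all genes tested −0.04.

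None of the 9 passed the threshold in this comparison, in which 0.0064% of all genes were called higher (1 gene) and 0% lower. The 1 gene was SEC61B (2.04 ± 0.24, edgeR adjusted p = 0.00102), whose inputs already differed between the constructs, and LMNB1 was at 0.23 ± 0.21. An unadjusted p under 0.05 was reached by 2 of the 9 receptors and by 13.9% of all genes, and DESeq2 called 0 receptors and 2.23% of genes. Pairing each enriched library with its input brought NOTCH2 past it (0.56 ± 0.15), in a fit that called 6.1% of all genes. With replicates 1 and 2 of ERM alone, NOTCH2 passed (0.70 ± 0.18) with 5.27% of all genes, and with replicates 3 and 4 alone, PLXNA1 (0.59 ± 0.17) and PLXNB1 (1.22 ± 0.40) passed with 9.15% of all genes. PLXNB1 was at 0.15 in replicates 1 and 2, so its difference came mostly from the other 2. PLXNA3 was at −0.26 in the first 2 and at 0.26 in the last 2. Scaling by total counts moved the median of all genes from −0.04 to 0.20 and put all 9 receptors above 0, with a median of 0.68, while RLE scaling left 6 above 0 and a median of 0.38. RLE scaling put the median of all genes at −0.11. The receptors' median lay above that of all genes under each of the 3 scalings. A change of scaling shifts all genes by nearly the same amount, so this could hardly have come out otherwise and is no separate support.

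Genes of the 2 pathways were grouped by where their products work. Of 19 tested proteases and glycosyltransferases of the secretory pathway that act on Notch, all 19 had an ERM-minus-NES difference above 0 with TMM or total counts and 18 with RLE scaling, with a median of 0.44. They include ADAM10, the protease that makes the first cut after ligand binding (0.74 ± 0.20), and the xylosyltransferases GXYLT1 (0.70 ± 0.28) and XXYLT1 (0.68 ± 0.21). Their enrichment over input was mixed, with 10 of the 19 above input with ERM and 7 with NES. Past the threshold were 7 above and 5 below with ERM, and 4 above and 8 below with NES. Of all genes, 34.3% were called higher and 28.9% lower with ERM, and 28.7% and 26.4% with NES. ADAM10 rose with ERM (0.78 ± 0.11, adjusted p = 7.7e-06) and did not differ detectably from input with NES (0.03 ± 0.16, adjusted p = 0.873, edgeR). Its difference between the 2 arms was not called (adjusted p = 0.146, edgeR). The genes named from each list were picked for a large ERM-minus-NES difference, so unlike results in the 2 arms follow in part from that choice.

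All 6 tested plexin co-receptors were also above 0 under each of the 3 scalings, with a median of 0.59. NRP1, the neuropilin that binds class 3 semaphorins, differed by 0.65 ± 0.30, PTK7 by 0.54 ± 0.18 and ERBB2 by 0.51 ± 0.22. PTK7 and ERBB2, receptor tyrosine kinase family members, lay below input in both arms like most of the plexins. PTK7 was at −0.96 ± 0.10 with ERM and ERBB2 at −1.15 ± 0.12, and with NES ERBB2 was at −1.66 ± 0.18. NRP1 rose with ERM (1.06 ± 0.17, adjusted p = 2.03e-05, edgeR) and was at 0.41 ± 0.24 with NES. Its difference between the arms was not called (adjusted p = 0.335, edgeR). Of 18 semaphorins, 13 were above 0 (12 with RLE scaling, 17 with total counts), with a median of 0.26. SEMA4D differed by 0.50 ± 0.28, SEMA6A by 0.41 ± 0.32 and SEMA4F by 0.25 ± 0.25. Of 5 Notch ligands, 3 were above 0 under all 3 scalings, with a median of 0.38, and JAG2 was at 0.38 ± 0.30.

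The genes for cytosolic and nuclear proteins were placed differently. Of 27 cytosolic partners and effectors of plexins, 7 were above 0 (5 with RLE scaling, 15 with total counts), with a median of −0.17, and RND3 (−0.88 ± 0.21), RHOA (−0.61 ± 0.20) and RAC1 (−0.45 ± 0.17), all small GTPases, were below. Of 24 cytosolic and nuclear proteins of Notch signalling, 11 were above 0 (9 with RLE scaling, 18 with total counts), with a median of −0.09. MAML1, a nuclear co-activator of Notch, was at −0.44 ± 0.23, NEURL4 at 0.43 ± 0.26 and NUMBL at −0.30 ± 0.30. Of 7 transcriptional targets of Notch, 1 was above 0 under all 3 scalings, with a median of −0.74. HES1 was at −1.09 ± 0.23, HEY1 at −0.74 ± 0.19 and NRARP at −1.14 ± 0.82. Over all 15619 genes, 46.6% were above 0 (41.4% with RLE scaling and 67.5% with total counts). No gene of these pathway lists passed the threshold, and the lists were not tested against each other. The lists were drawn up with earlier results of these data known.

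**Figure D3:**
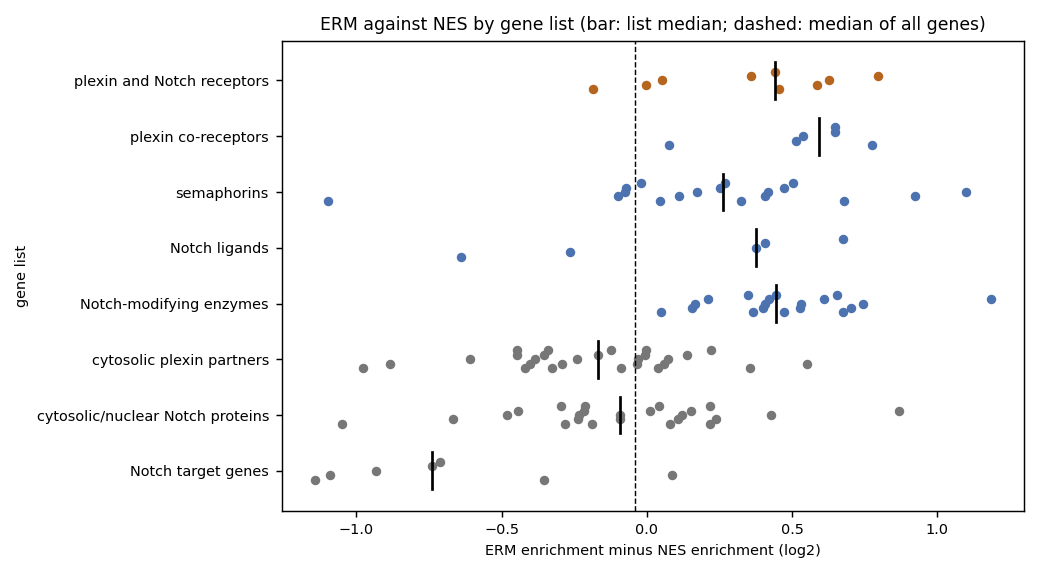
Difference between ERM and NES enrichment (x axis, log2) for each tested gene of 8 lists (y axis), with a bar at each list's median and a dashed line at the median of all genes (−0.04). The receptors (brown) other than PLXND1 and most genes of secretory pathway and membrane proteins (blue) lie to the right of the dashed line, and most Notch target genes (grey) to the left.

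Leaving the inputs out gave another order. Between the enriched ERM and enriched NES libraries alone, PLXNB1 differed by 0.87 ± 0.34, NOTCH3 by 0.60 ± 0.30, PLXNB2 by 0.55 ± 0.14 and PLXND1 by 0.49 ± 0.23 (log2). PLXNB2 was the single receptor past the threshold, where 5.99% of genes were called, 3.27% higher and 2.71% lower. It was not past it with only the compared libraries or without either enriched NES library, and without the first of these the genes called went from 935 to 15. NOTCH1 turned to −0.47 ± 0.37 and NOTCH2 to −0.01 ± 0.23. For NOTCH2 this value joins opposite ones: 0.40 ± 0.13 from ERM replicates 1 and 2 and −0.39 ± 0.13 from replicates 3 and 4, both past the threshold, as was NOTCH1 at −1.04 ± 0.15 in the latter. The 2 sets called 11.6% and 22.7% of all genes. The authors' deposited table lists −0.41 for NOTCH1, 0.04 for NOTCH2 and 0.59 for PLXNB2. Across genes its values followed the enriched-only contrast (r = 0.998) more closely than the one relative to input (r = 0.635), over 15619 genes that are not independent replicates. Without inputs PLXNA1 was at 0.06 ± 0.15, and the median of the 9 was 0.08, against −0.05 over all genes tested. For NOTCH1, NOTCH2, PLXNA1 and PLXND1 the sign or size of an ERM preference thus depends on whether inputs enter. The ERM inputs lay from the NES inputs by −0.84 ± 0.38 for NOTCH1 and −0.59 ± 0.23 for NOTCH2. For PLXNA1 this was −0.40 ± 0.14 and for PLXND1 0.68 ± 0.21. None of these was called (adjusted p between 0.11 and 0.286, edgeR). For NOTCH1 and NOTCH2 the ERM inputs were lower in replicates 3 and 4 than in replicates 1 and 2.

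At the nuclear lamina, s6G and APEX only labelling gave opposite signs for part of the family. NOTCH1 had 31.8 and 46.3 CPM in the s6G inputs and 54.4 and 84.6 CPM after enrichment. In the APEX only arm it had 52.4 and 65.2 CPM in input and 30.1 and 31.9 CPM after enrichment. Enriched over input, NOTCH1 was thus at 0.83 ± 0.31 with s6G and at −0.92 ± 0.31 with APEX only (log2, n = 2 each), with no overlap between the groups in either arm. Enriched libraries were all above the inputs for 37.4% of all genes tested with s6G, and all below for 25% with APEX only. NOTCH1 is 1 of these genes in each arm. In the unlabelled arm NOTCH1 was at −0.62 ± 0.32.

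PLXNA1 had 161 and 201 CPM in the s6G inputs and 214 and 237 CPM after enrichment, and with APEX only 216 and 196 CPM against 136 and 143 CPM. Its values were 0.32 ± 0.19 with s6G, −0.57 ± 0.19 with APEX only and −0.23 ± 0.19 in the unlabelled arm. NOTCH2 was at 0.20 ± 0.26, −0.66 ± 0.26 and −0.89 ± 0.26 in the 3 arms. For these genes and for PLXNA2 and PLXNA3, both s6G pairs were above their own inputs and both APEX only pairs below, which held for 5 of the 9 receptors and 9.36% of all genes tested. PLXNA2 was at 0.21 ± 0.75 with s6G and −0.42 ± 0.72 with APEX only, and PLXNA3 at 0.07 ± 0.39 and −0.43 ± 0.39, so for these 2 the errors exceed or match the values.

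NOTCH3, PLXND1 and PLXNB2 did not follow. NOTCH3 had 80.2 and 161 CPM in the s6G inputs and 23.2 and 61 CPM after enrichment (−1.52 ± 0.70), and was at −0.93 ± 0.69 with APEX only. PLXND1 was at −1.09 ± 0.89 and −0.96 ± 0.88, and PLXNB2 at −0.64 ± 0.42 and −1.01 ± 0.42. PLXNB1 was near its input in both arms (−0.04 ± 0.66 and 0.12 ± 0.65). None of the 9 passed the threshold in the LMNB1 arms, where 13% of 16525 genes were called with s6G (5.37% higher, 7.64% lower), 1.43% with APEX only (0.411% and 1.02%) and 0.0363% in the unlabelled arm (0.0242% and 0.0121%). Pairing each library with its input brought NOTCH1 (0.82 ± 0.21) past it above input, and PLXND1 (−1.25 ± 0.28) and NOTCH3 (−1.59 ± 0.27) below, with s6G, where this fit called 18.9% of all genes. With APEX only, where it called 4.08%, it brought NOTCH1 past the threshold on the other side of input (−0.91 ± 0.21). The authors' deposited table, whose header does not name the sides compared, gives 0.65 for NOTCH1 with s6G and −0.96 with APEX only, and −1.70 and −0.96 for NOTCH3. With s6G it gives 0.15 for PLXNA1, 0.03 for NOTCH2, 0.02 for PLXNA2 and −0.09 for PLXNA3, the last with the other sign. The median of all genes tested in the s6G arm was 0.13, above the fitted values of PLXNA3.

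The median over the 9 receptors was 0.07 with s6G, −0.66 with APEX only and −0.44 in the unlabelled arm. The first of these is close to 0 and changed sign with single libraries: it was −0.80 without enriched replicate 2 and −0.44 without input replicate 1. The 2 replicates of this construct differ in level for NOTCH3, PLXND1, PLXNB1 and PLXNB2, which is described with the inputs.

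**Figure D4:**
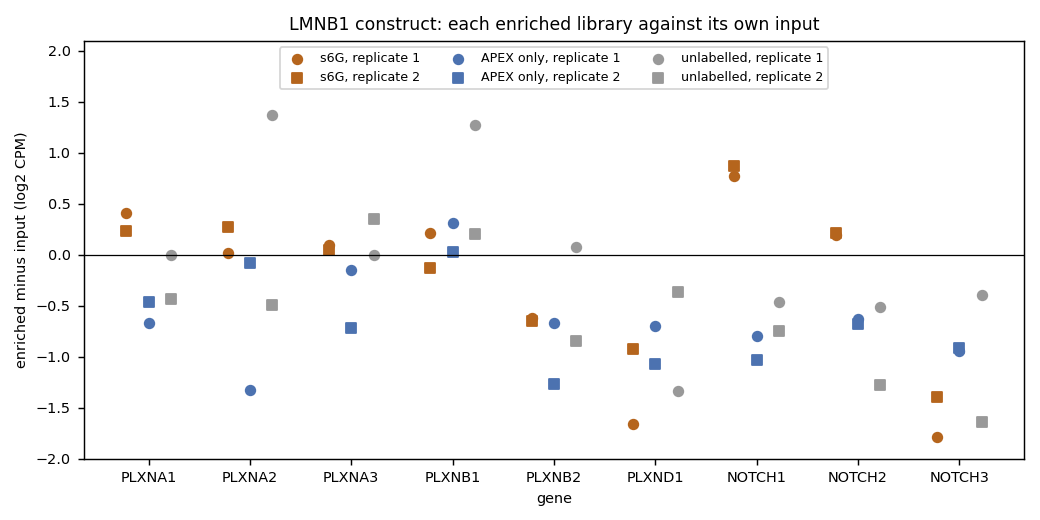
Enriched minus input (y axis, log2 CPM) for each replicate pair of the 3 LMNB1 arms, by gene (x axis). For NOTCH1, NOTCH2 and PLXNA1, and by less for PLXNA2 and PLXNA3, the s6G pairs (brown) are above 0 and the APEX only pairs (blue) below.

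In the mitochondrial matrix, where no mRNA of a nuclear gene is known to be translated, the receptors mostly lay below input in all arms. With s6G, PLXND1 had 58.9 and 74.9 CPM in input and 22.4 and 34.3 CPM after enrichment (−1.25 ± 0.55). NOTCH3 had 75.4 and 140 CPM in input and 36.1 and 53.4 CPM after enrichment (−1.28 ± 0.80). PLXNB2 had 108 and 168 CPM in input and 65.8 and 97.3 CPM after enrichment (−0.77 ± 0.45). These 3, with NOTCH2 (−0.72 ± 0.36) and PLXNA1 (−0.53 ± 0.27), had enriched libraries below both inputs, as did 21.8% of all genes tested. NOTCH1, PLXNA2, PLXNA3 and PLXNB1 overlapped with their inputs and lay between −0.49 and 0.00.

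With s4U the 9 values ran from −1.23 (PLXND1) to −0.28 (PLXNA2), and NOTCH1, at −0.17 ± 0.42 with s6G, was at −0.77 ± 0.42 with s4U. With APEX only, NOTCH3 was lowest (−1.06 ± 0.78), and PLXNB1 (0.17 ± 0.80) and PLXNA3 (0.04 ± 0.42) were at input. The medians were −0.53 with s6G, −0.64 with s4U and −0.57 with APEX only, and −0.52 in the unlabelled arm, which had neither nucleoside nor biotin-phenol. None of the 9 passed the threshold in the labelled MITO arms, where 0.29% and 0.0264% of 15151 genes were called higher and lower with s6G, 0.112% and 0% with s4U, and 0.251% and 0.0198% with APEX only.

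Pairing each MITO library with its input brought NOTCH3, PLXND1 and PLXNB2 past the threshold below input with s6G (−1.23 ± 0.25, −1.26 ± 0.27 and −0.75 ± 0.24), in a fit that called 6.82% of all genes. The same 3 passed with s4U, with PLXND1 at −1.31 ± 0.25 and NOTCH3 at −1.15 ± 0.25, where 4.98% of genes were called. With APEX only NOTCH3 (−0.92 ± 0.24) and NOTCH1 (−0.84 ± 0.27) passed, with 7.15% of genes. In the unlabelled arm, where 9.87% of genes were called (5.78% higher, 4.09% lower), NOTCH2 was past the threshold below input (−1.47 ± 0.39). That value rests on 5 and 95 counts in the shallow enriched libraries. PLXNB1, at 1.93 ± 0.88 in that arm, rests on 17 and 32 counts. Pairing brought PLXNB2 (−1.24 ± 0.31) past the threshold below input and PLXNB1 (1.68 ± 0.58) past it above input in the unlabelled arm too, and NOTCH2 was at −1.41 ± 0.31, in a fit that called 20.5% of all genes.

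The inputs show how much these genes vary before any enrichment, and the rule by which the genes were chosen did not use them on their own, so a test was made. No receptor passed the threshold in 5 comparisons of inputs by the edgeR quasi-likelihood test, adjusted over all genes. For ERM against NES, 4 of the 9 had an unadjusted p under 0.05 (NOTCH1, NOTCH2, PLXNA1 and PLXND1), as did 17% of all genes, and DESeq2 called 1, PLXND1, with 4.09% of all genes. PLXND1 had 23.1 and 24.7 CPM in the NES inputs, below all 4 ERM inputs (0.68 ± 0.21 higher in ERM, adjusted p = 0.11, edgeR), and PLXNA1 was 0.40 ± 0.14 lower in ERM (adjusted p = 0.166, edgeR). In this comparison 0.877% of all genes were called in either direction.

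In the MITO inputs, s6G against APEX only called 0.0528% of genes, and none of the receptors had an unadjusted p under 0.05 or was called by DESeq2. The largest difference was that of PLXNA2, whose s6G inputs held 6.75 and 12.6 CPM and whose APEX only inputs held 33.7 and 13.5 CPM (−1.28 ± 0.62, adjusted p = 0.603, edgeR). The s6G value was also lowest with LMNB1, where the s6G inputs held 4.74 and 13.7 CPM and the APEX only inputs 18.9 and 33.5 CPM (−1.49 ± 0.76, adjusted p = 0.488, edgeR). The groups of PLXNA2 did not overlap in either construct, though in MITO only narrowly (12.6 against 13.5 CPM). The share of all genes whose input groups did not overlap was not computed, for these inputs or for those of ERM and NES. With LMNB1, where 0.127% of genes were called and 0.0182% were lower with s6G, NOTCH2 was 0.65 ± 0.26 lower with s6G (149 and 225 CPM against 300 and 289 CPM, adjusted p = 0.357, edgeR). It alone had an unadjusted p under 0.05, and DESeq2 called 0. NOTCH1 was 0.59 ± 0.31 lower there (adjusted p = 0.513) and 0.48 ± 0.41 lower with MITO (adjusted p = 0.82). For s4U against APEX only and for s6G against s4U, 0% of genes were called, no receptor had an unadjusted p under 0.05, and DESeq2 called 0 receptors. With 2 inputs an arm and no pairing by replicate number, differences of this size could not be told from the spread between the libraries. A block for the replicate number changed this in LMNB1. PLXNA2, NOTCH2 and NOTCH1 then passed the threshold, lower with s6G, in a fit that called 33.2% of all genes. In MITO the same block, with the numbers as labelled, called 0% of genes for s6G against APEX only.

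Much of the spread between input libraries followed the replicate. Over the 20 inputs, by CPM of total counts, PLXNA2 ranged from 3.8 to 44 (median 13.2), NOTCH3 from 27 to 255 (median 70.1) and NOTCH1 from 11.4 to 65.1 (median 40.8). PLXNA1 ranged only from 79.2 to 214 (median 170). The input of replicate 2 held 1.86 to 4.11 times as much NOTCH3 as that of replicate 1 in the s6G, s4U and unlabelled arms of MITO and in all 3 LMNB1 arms, but 0.344 times as much in the APEX only arm of MITO. PLXND1 (1.27 to 4.23 times, and 0.324), PLXNB1 (1.66 to 3.51, and 0.33), PLXNA2 (1.77 to 2.89, and 0.4) and PLXNB2 (1.56 to 2.45, and 0.651) went the same way, as did NOTCH1 (1.24 to 1.84, and 0.914) and PLXNA3 (1.02 to 2.06, and 0.777), with smaller ratios. NOTCH2 (0.84 to 1.52) and PLXNA1 (0.827 to 1.25) had no common direction over the 7 arms. The APEX only inputs of MITO thus lie the other way round from those of the other arms for these 7 receptors. What sets the replicates apart was not tested.

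**Figure D5:**
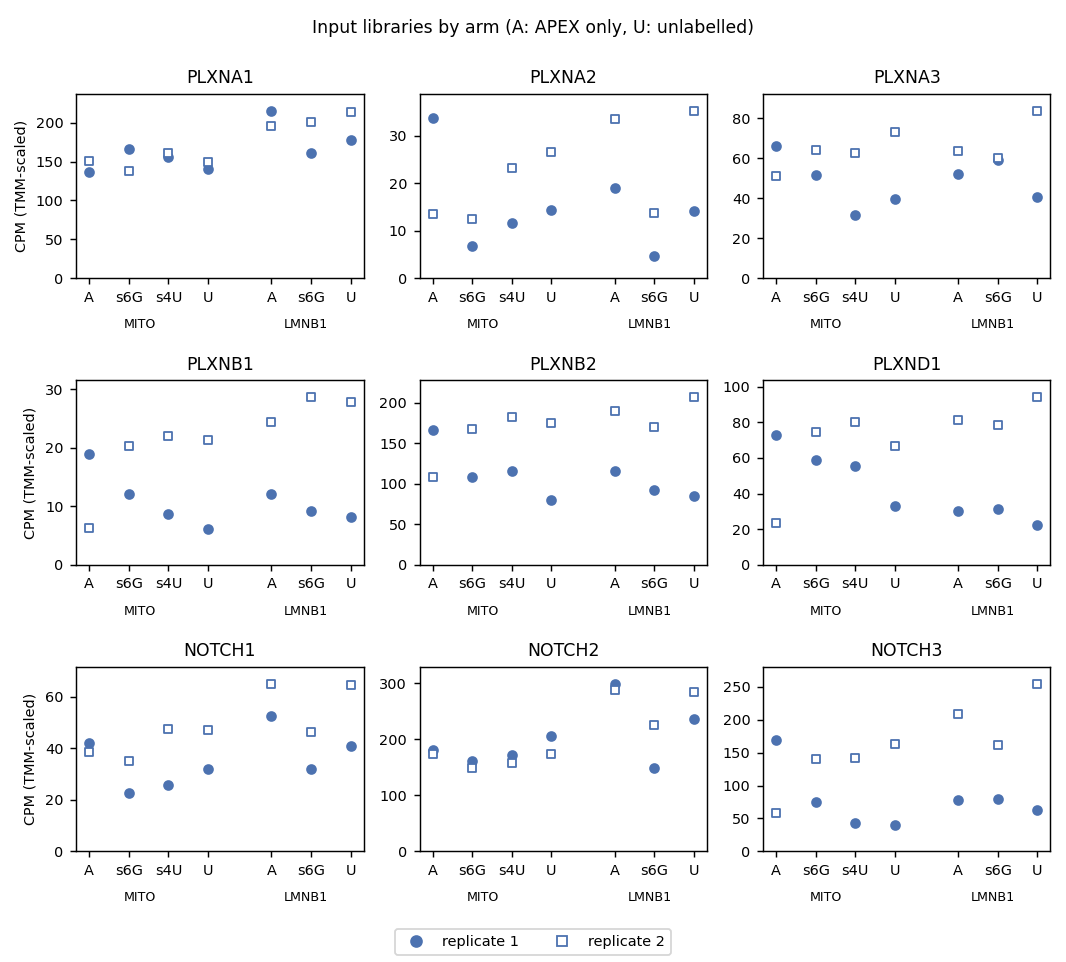
CPM on TMM-scaled totals (y axis, linear, from 0) in the input libraries of the MITO and LMNB1 arms (x axis), replicate 1 filled and replicate 2 open. For NOTCH3, PLXND1 and PLXNB1 replicate 2 is above replicate 1 in 6 of 7 arms and below it in the APEX only arm of MITO, while PLXNA1 stays between 137 and 216 CPM.

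The 4 remaining relatives were too scarce to follow. NOTCH4 had at most 1 count in any library and did not enter the tests. PLXNB3 was left out of the ERM and NES fit, with 0 to 4 counts per library. PLXNC1, a receptor for SEMA7A, had 14 to 44 counts in the ERM libraries (0.34 ± 0.38 over input, log2) and 6 to 24 in the NES libraries (−1.32 ± 0.57). PLXNA4, a partner of PLXNA3 in axon guidance, had 6 to 46 counts in the ERM libraries and 2 to 9 in the NES libraries, and its ERM-minus-NES difference was 0.18 ± 0.87.

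Over the 9 arms the receptors' mean enrichment was followed most closely by FGFR4 and TPCN1 (r = 0.987 for each), then PIGQ (0.965), SPPL2B (0.964) and ZDHHC8 (0.962), among 7982 genes with enough counts in all fits. FGFR4 is a fibroblast growth factor receptor, TPCN1 an ion channel of endolysosomes, PIGQ a subunit of the enzyme that starts GPI anchors, SPPL2B an intramembrane protease and ZDHHC8 a palmitoyltransferase. Of the receptors themselves, PLXNA1 was closest to their mean (0.968), followed by PLXNA3 (0.883), PLXNB2 (0.764), PLXND1 (0.739) and NOTCH3 (0.494). NOTCH2 (−0.001) and NOTCH1 (−0.075) did not follow it. PLXNA2 and PLXNB1 were under the level required. These are descriptions over 9 arms that share constructs and inputs, and each receptor is part of the mean it is set against.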

How the data were processed

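RNA of 40 poly(A) libraries from HEK293T cells was analysed. The tools named, per the submitters' processing notes, were HISAT2 (2.1.0) as aligner, HTSeq (0.7.2) as counter, deepTools (2.5.3), DESeq2 and SAMtools, and the build was GRCh38. Strand setting and filters were not given in the sources used here. The authors deposited raw counts per gene, which were the basis of all fits. For ERM against NES and for LMNB1 the authors deposited their own log2 fold changes and p-values, of which the log2 values alone were copied. Their MITO table holds log2(TPM + 1) of the 2 replicates added, and it was put back to the mean TPM. Genes were identified by symbol and Ensembl ID, and ITCH, a member of 1 list, is not reported here.

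Groups were taken from the sample titles. Genes were filtered with filterByExpr, scaled with TMM and fitted with edgeR 4.0.16 (R 4.3.3, glmQLFit, robust) in 3 fits: ERM with NES (15619 genes), MITO (15151) and LMNB1 (16525). Errors of fold changes are standard errors from the quasi-likelihood F. P-values were adjusted by Benjamini-Hochberg over all genes of a fit, with a threshold of 0.05. The tests were checked on simulated data. DESeq2 1.42.0, other scalings and filters, fewer libraries and a replicate block were tried as alternatives.

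The enriched library and the input of 1 number are the same biological replicate per the labels. Their deviations from the group means correlated at 0.147 to 0.204 with ERM, 0.187 with NES, 0.104 to 0.635 with MITO and 0.041 to 0.503 with LMNB1. With ERM, unlike numbers reached similar values, at 0.213 for enriched 1 with input 2 and 0.203 for enriched 3 with input 4. For enriched 2 with input 1 and enriched 4 with input 3 the values were 0.013 and 0.098. Libraries of replicates 1 and 2 against those of replicates 3 and 4 were at −0.255 to −0.065.

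The 9 receptors and all gene lists were chosen with earlier results of these data known. Named beside them are the other plexins and NOTCH4, up to 3 genes a list with the largest ERM-minus-NES difference at a mean log2 CPM of at least 4, the 5 genes most like the receptors' mean, and LMNB1 and SEC61B.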

Additional observations from a re-analysis of the deposited data

Results flagged for a closer look

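PLXNA1 in enriched ERM replicate 1 lay apart from the other 3 enriched ERM libraries, at 76.3 CPM against 66.7 to 68 CPM. Of 18 groups of 4 libraries looked at in this way it was the only one, and chance sets apart about 1 in 20.

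Between the s6G and APEX only arms of LMNB1, 5 receptors had opposite signs in both pairs of each arm, and this difference was not tested. The same pattern was found in 9.36% of all 16525 genes tested. Enrichment was higher with s6G by 1.74 (log2) for NOTCH1, 0.89 for PLXNA1, 0.86 for NOTCH2, 0.85 for PLXNA2 and 0.50 for PLXNA3. The value of PLXNA2 rests on replicate 1, whose APEX only pair was at −1.33 while the other was at −0.08.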

How the results depend on the processing

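The median enrichment of the 9 receptors kept its sign in ERM, NES, MITO s6G, MITO s4U and MITO APEX only under all settings. With total counts it moved to −0.91 in ERM, −1.45 in MITO s6G, −1.11 in MITO s4U, −1.33 in MITO APEX only, −0.51 in LMNB1 APEX only and 0.28 in LMNB1 s6G, where that scaling moved the median of all genes to 0.43, −0.87, −0.45, −0.74, 0.20 and 0.35. From ERM replicates 3 and 4 alone, chosen after seeing the data, it was −0.83. In LMNB1 APEX only it was −0.59 with no filter and −0.60 with a stricter one, and in MITO s6G −0.48 with RLE scaling and with DESeq2. In LMNB1 s6G it was 0.11 with RLE scaling and DESeq2, 0.15 with no filter and with a stricter one, and reversed to −0.021 with only the compared libraries. Leaving out 1 replicate at a time gave −0.80 to 0.37 for LMNB1 s6G (reversed at −0.80 and −0.44), −0.98 to −0.31 for LMNB1 APEX only, −1.10 to 0.13 for LMNB1 unlabelled (reversed at 0.13, without input 2), −1.09 to −0.43 for MITO s6G, −1.34 to −0.22 for MITO s4U, −0.676 to −0.059 for MITO APEX only, −1.35 to −0.23 for MITO unlabelled and −1.58 to −1.41 for NES. Halving the all-even counts of enriched ERM 3 and 4 left the ERM-minus-NES median at 0.44.

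The labels do not say what inputs of 1 number share across arms. With the replicate block, 2 receptors and 10.2% of all genes passed between ERM and NES (PLXND1 0.92 and NOTCH2 −0.36), and 3 receptors and 33.2% of all genes in LMNB1 s6G against APEX only (PLXNA2 −1.51, NOTCH2 −0.64 and NOTCH1 −0.57; adjusted p between 2.23e-07 and 0.00247, edgeR). Inputs of 1 number deviated together in LMNB1 (r = 0.425 to 0.548) but not between ERM and NES (−0.03 to −0.001), and APEX only inputs of MITO deviated against the other MITO arms (−0.596 to −0.386). With those numbers crossed, which was chosen after seeing the data, 2790 genes (20.2%) and 2 receptors passed for MITO s6G against APEX only, and 1119 genes (8.11%) and 1 receptor for s6G against s4U. Between ERM and NES inputs 1 receptor passed with no filter, 1 with DESeq2, 1 from ERM replicates 1 and 2 (6.23% of all genes) and 3 from replicates 3 and 4 (19.1%).

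Counts of genes called over all genes changed by more than 1.5 times. ERM minus NES called 1 gene by edgeR, 348 by DESeq2 and 952 with the replicate block, and from 0 to 9 when 1 library was left out. The ranges in the next sentence do not include the fits with 1 library left out. The other comparisons ran from 145 to 1317 (LMNB1 APEX only, 237 in the report), 0 to 441 (LMNB1 unlabelled, 6), 2119 to 3394 (LMNB1 s6G, 2150), 0 to 2815 (MITO s6G, 48), 13 to 755 (MITO s4U, 17), 49 to 1131 (MITO APEX only, 41), 320 to 3421 (MITO unlabelled, 1496), 558 to 3680 (enriched ERM against NES, 935), 90 to 3091 (ERM against NES inputs, 137) and 4 to 4623 (LMNB1 inputs, 21). With 1 library left out, the calls were 0 for LMNB1 APEX only, 0 to 1064 for LMNB1 unlabelled and 784 to 1176 for LMNB1 s6G. They were 13 to 50 for MITO s6G, 0 to 18 for MITO s4U, 5 to 23 for MITO APEX only and 0 to 1723 for MITO unlabelled. For enriched ERM against NES they were 15 to 1190, for ERM against NES inputs 2 to 64 and for LMNB1 inputs 1 to 2. The cause of these shifts was not tested. With 2 libraries a group, and few counts for PLXNA2 and PLXNB1, differences of these 2 genes well above their SE could be missed. PLXNA2, at −1.28 ± 0.62 between the s6G and APEX only inputs of MITO, had an adjusted p of 0.603 (edgeR).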
